A study of Rattus norvegicus with 42 samples.

Results

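De novo lipogenesis, the pathway by which the liver makes fatty acids from acetyl-CoA, was followed through 10 genes: the enzymes Acly, Acaca, Acacb, Fasn, Scd, Elovl6 and Me1 and the regulators Srebf1, Mlxipl and Thrsp. Genes were matched by their names in the pSer2 Pol2 table, in which 9 of the 10 were found, and through these by Ensembl identifier among the 22929 genes of the RNA count table. They covered 14 of 60999 pSer2 Pol2 regions, and 8 of 3981 GR regions were centred within 50 kb of one of their transcription start sites (TSS). Mlxipl was not analysed here. Elovl6 had 0 to 2 reads in each RNA library and no tags over its region in any pSer2 Pol2 library, so 8 genes entered the tests.

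The livers came from male, adrenalectomised Sprague Dawley rats, which no longer make their own adrenal corticosterone, infused intravenously for 3 h. Corticosterone (CORT, given as CORT-HBC) or its vehicle (VEH) was infused in 1 of the 2 patterns named PULS, with infusions of 20 min in each hour, and CONS, a sustained infusion at a lower rate set to match the hourly dose, with the rate raised briefly at the start to clear air from the lines. RNA libraries were made at 180 min from 4 groups of 3, PULS CORT, PULS VEH, CONS CORT and CONS VEH. ChIP-Seq libraries for the glucocorticoid receptor (GR), the receptor for CORT, and for RNA polymerase II phosphorylated at serine 2 (pSer2 Pol2), the elongating form of the enzyme, were made from 5 groups of 2, each library from 6 pooled rats. These were the pulse peak at 140 min (PEAK_140), the trough at 180 min (NADIR_180), constant CORT at 140 min (CONS_140) and 180 min (CONS_180), and pulsatile vehicle (VEH), with 1 library at each time. The ChIP vehicle was pulsatile also for the comparisons with constant CORT. The labels do not say whether the RNA samples of a group came from separate rats, and where they did not, the p-values measure only the spread between these samples.

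In the liver, ATP citrate lyase (Acly) cleaves citrate to cytosolic acetyl-CoA, acetyl-CoA carboxylase makes malonyl-CoA (Acaca in the cytosol, Acacb at the mitochondrial surface, where it restrains fatty acid oxidation), and fatty acid synthase (Fasn) builds palmitate with NADPH that malic enzyme (Me1) helps to supply. Elovl6 lengthens palmitate and Scd puts in the double bond of oleate. Srebf1 encodes SREBP-1, the membrane-bound transcription factor that raises these genes with insulin and is itself made from alternative first exons, with SREBP-1c as the main liver form. Mlxipl encodes the glucose-responsive factor ChREBP, and Thrsp encodes Spot 14, a small protein that promotes lipogenesis and responds to thyroid hormone and carbohydrate feeding. Glucocorticoids are known both to permit lipogenesis in the presence of insulin and to oppose the action of insulin.

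Promoters are shown for the genes with a GR region over a promoter in build rn6, Acacb and Thrsp, and for the Srebf1 start that carried most of the pSer2 Pol2 signal. Each is 250 b before to 50 b after a RefSeq start site in build GRCr8, on the minus strand. The promoter table used here, taken from RefSeq, matched 7 of the 10 genes by symbol (Acly, Acacb, Scd, Me1, Srebf1, Mlxipl and Thrsp). The capitals mark a short GR motif, 1 arm of the full element (AGAACA on either strand) in Acacb and the first ATG after the start site in Srebf1 and Thrsp.
Acacb, chr12:48138165-48138464: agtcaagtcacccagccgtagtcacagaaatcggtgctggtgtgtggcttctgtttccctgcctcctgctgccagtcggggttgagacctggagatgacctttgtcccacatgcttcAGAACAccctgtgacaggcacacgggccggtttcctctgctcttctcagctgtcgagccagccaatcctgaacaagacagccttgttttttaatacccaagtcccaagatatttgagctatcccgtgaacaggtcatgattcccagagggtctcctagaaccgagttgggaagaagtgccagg
Thrsp, chr1:161138915-161139214: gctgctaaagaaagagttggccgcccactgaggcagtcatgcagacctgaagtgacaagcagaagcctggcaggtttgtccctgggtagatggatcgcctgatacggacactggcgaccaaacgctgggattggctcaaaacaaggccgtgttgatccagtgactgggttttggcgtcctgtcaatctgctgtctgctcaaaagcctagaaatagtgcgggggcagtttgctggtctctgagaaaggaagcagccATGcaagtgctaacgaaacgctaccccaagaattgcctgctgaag
Srebf1 downstream start, chr10:45518961-45519260: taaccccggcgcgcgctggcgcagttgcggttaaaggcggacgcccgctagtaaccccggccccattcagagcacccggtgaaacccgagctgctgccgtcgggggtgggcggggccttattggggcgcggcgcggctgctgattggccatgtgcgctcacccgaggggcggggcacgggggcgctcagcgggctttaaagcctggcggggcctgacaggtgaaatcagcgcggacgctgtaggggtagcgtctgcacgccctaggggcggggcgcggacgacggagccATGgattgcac

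The short motif of Acacb lay 133 to 128 b before the start site, and 20.7% of the 33469 rat promoters in the table held one. The full GR element (GNACANNNTGTNC, 0.439% of promoters), a sterol regulatory element (TCACNCCAC, 1.12%) and the E box CACGTG (6.42%) had no match in any of the promoters of the 7 genes, which says only that these letters were absent from these windows. The values below were deposited on build rn6, whose sequence was not used here, and RefSeq starts were not lifted between builds. The printed Acacb and Thrsp sequences were therefore not matched by position to the GR regions. Acacb has more than 1 start in rn6, and whether its short motif lies under the GR region was not tested. The 2 Srebf1 starts lay 10154 b apart in GRCr8 and 10155 b apart in the rn6 regions.

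Depth was 3956379 to 7777219 reads per RNA library, 2051977 to 6715803 tags per GR library and 4938473 to 9326927 per pSer2 Pol2 library. As a check of the labels, the CORT-induced genes Fkbp5, Per1 and Tsc22d3 were higher in RNA with both patterns, by 4.25-fold to 6.69-fold with PULS and 7.71-fold to 8.72-fold with CONS. Among liver markers, all 6 hepatocyte genes were present, and 2 of them (Tat and Cps1) rose with both patterns. The summed level of the 6 was 93922 to 136980 reads scaled to library size (CPM) in CONS VEH against 128692 to 147894 in the other groups. Alb made up 7.07% of reads in CONS VEH replicate 2, the lowest share of the 12 libraries. That library was the highest of CONS VEH for Acly, Acaca, Acacb, Fasn and Thrsp, but not for Scd, Me1 or Srebf1. The summed level of the 6 adipocyte genes was 53.6 to 53.9 CPM in CONS CORT and 28.4 to 48.9 in the other groups. Nearly all of it was Cidec, which liver also expresses, since Lep and Cfd had 0 reads and Adipoq, Plin1 and Retn 1 to 3 over the 12 libraries. The 5 stellate cell genes summed to 442 to 500 CPM in CONS CORT and 529 to 639 in CONS VEH. Of these, Dcn rose with CONS (3.81 to 8.45 CPM on average, log2 difference 1.16, adjusted p = 0.0359), while Col3a1 averaged 399.9 CPM in CONS VEH and 315 CPM in CONS CORT and Reln 181 and 133 CPM. Col3a1 missed the adjusted p threshold (0.160), and Reln passed it (0.0241) but not 1.5-fold. The part of any of these cell types in the results was not tested. Among the 5 Kupffer cell, 4 endothelial, 4 cholangiocyte, 3 lymphocyte and 1 erythroid genes measured, none was called in either CORT response. In whole liver, fewer cells of a type and less RNA per cell cannot be told apart.

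The RNA comparison asked how each CORT pattern changed the genes at 180 min. With constant CORT, 7 of the 8 tested genes fell (Acly, Acacb, Fasn, Scd, Me1, Srebf1 and Thrsp), against 4.75% of all 14092 genes tested that fell. The level with CORT ranged from 0.561 times that with VEH for Acacb to 0.0717 times for Scd. The median log2 difference of the 8 genes was -1.53, and that of all genes -0.01. With pulsatile CORT only Me1 fell, against 2.44% of all genes, and the median log2 difference of the 8 genes was -0.11, that of all genes -0.01. The 8 genes were chosen with earlier results of these data known, so the numbers called are not independent of that choice. Genes were called with edgeR at a Benjamini-Hochberg adjusted p below 0.05 over all genes and a change over 1.5-fold. Levels are given in CPM, which are not scaled to gene length and are therefore compared within a gene only.

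Acly RNA (pSer2 Pol2 region chr10:88432845-88442845, rn6) was 359, 525 and 328 CPM in CONS VEH and 99.3, 113 and 131 CPM in CONS CORT. All 3 CONS CORT libraries lay below every other library of the series. The means were 404 ± 106 and 114 ± 15.9 CPM (SD, n = 3), a log2 difference of -1.82 ± 0.31 (SE; edgeR adjusted p = 0.000959). In PULS VEH the values were 382, 248 and 578 CPM and in PULS CORT 145, 298 and 374 CPM. These groups overlapped, and the log2 difference of -0.57 ± 0.30 was not called (adjusted p = 0.319).

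The 2 acetyl-CoA carboxylase genes showed smaller differences. Acaca (chr10:71536533-71546533) had 301, 503 and 258 CPM in CONS VEH and 161, 192 and 234 CPM in CONS CORT. The groups did not overlap, but the log2 difference of -0.85 ± 0.31 missed the threshold (adjusted p = 0.0896). It was called without PULS VEH replicate 2 (adjusted p = 0.0428), which was the lowest Acaca library of its group. Acacb (chr12:48208955-48218955) had 132, 184 and 127 CPM in CONS VEH and 65.6, 80.8 and 101 CPM in CONS CORT, again without overlap. Acacb fell by 0.83 ± 0.20 on the log2 scale (adjusted p = 0.0103), a call lost without CONS CORT replicate 1 (0.0598) or CONS VEH replicate 2 (0.0515). With pulsatile CORT both genes overlapped their vehicle: Acaca had 412, 191 and 418 CPM in PULS VEH and 226, 251 and 468 CPM in PULS CORT, and Acacb 107, 116 and 178 CPM and 112, 136 and 125 CPM. Their log2 differences were -0.11 ± 0.31 and -0.11 ± 0.20 (adjusted p = 0.890 and 0.832).

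Fasn RNA (chr10:109995901-110005901), the synthase itself, was 357, 727 and 299 CPM in CONS VEH and 61.1, 64.0 and 117 CPM in CONS CORT. Every CONS CORT library lay below the lowest library of the other groups, which was 169 CPM. Fasn fell by 2.51 ± 0.40 on the log2 scale, to 0.175 times VEH (adjusted p = 0.000514). With pulsatile CORT the values were 176, 309 and 323 CPM against 393, 169 and 521 CPM in PULS VEH, and the overlapping groups differed by -0.42 ± 0.38 (adjusted p = 0.594).

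Scd RNA (chr1:264162729-264172729), the desaturase, had the largest difference and the widest spread of the 8 genes. It was 202, 352 and 1286 CPM in CONS VEH and 19.5, 21.3 and 91.3 CPM in CONS CORT. CONS VEH replicate 3 was the highest library of the series, and CONS CORT replicate 3 the highest of its group, yet the groups did not overlap. Scd fell by 3.80 ± 0.79 on the log2 scale (adjusted p = 0.00394). Against PULS VEH in place of CONS VEH, an alternative added after the data were seen, the difference was -2.23 and the call was lost (adjusted p = 0.0708). In PULS VEH Scd was 284, 103 and 229 CPM and in PULS CORT 137, 191 and 763 CPM, with replicate 3 again high, and the log2 difference of 0.82 ± 0.70 was not called (adjusted p = 0.573). Its direction turned without PULS CORT replicate 3 (-0.33).

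Me1 (chr8:94342246-94352246), which supplies NADPH, was the only one of the genes called with both patterns. It had 62.9, 67.2 and 82.9 CPM in CONS VEH and 24.2, 24.5 and 25.8 CPM in CONS CORT. It fell by 1.51 ± 0.16 on the log2 scale (adjusted p = 1.44e-05), the smallest p of the 8 genes. In PULS VEH it had 63.8, 42.5 and 50.4 CPM and in PULS CORT 27.7, 37.8 and 38.8 CPM, without overlap. The log2 difference of -0.59 ± 0.16 was just past both thresholds (adjusted p = 0.0461), and the call was lost when any 1 of 8 libraries was left out (CONS CORT 1, 2 or 3, PULS CORT 1, 2 or 3, PULS VEH 1 or 3), with adjusted p from 0.0545 to 0.185.

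Of the regulators, Srebf1 (chr10:46572854-46582854) was 218, 212 and 252 CPM in CONS VEH and 50.4, 111 and 72.0 CPM in CONS CORT. All CONS CORT libraries lay below the lowest of the other groups, at 119 CPM, and Srebf1 fell by 1.54 ± 0.28 on the log2 scale (adjusted p = 0.00148). In PULS VEH Srebf1 was 220, 119 and 254 CPM and in PULS CORT 160, 212 and 281 CPM, groups that overlapped and differed by 0.14 ± 0.27 (adjusted p = 0.842). The counts are per gene and do not separate the first exons of SREBP-1a and SREBP-1c. Thrsp (chr1:162381253-162385575) was 40.7, 80.7 and 32.03 CPM in CONS VEH and 20.3, 13.2 and 20.8 CPM in CONS CORT. The groups did not overlap, and Thrsp fell by 1.49 ± 0.41 on the log2 scale (adjusted p = 0.0250). The call was lost without any 1 of CONS CORT 1, 2 or 3 or CONS VEH 2 (adjusted p 0.0573 to 0.122). In PULS VEH Thrsp was 36.0, 22.1 and 59.1 CPM and in PULS CORT 25.98, 47.2 and 81.5 CPM, and the log2 difference was 0.39 ± 0.40 (adjusted p = 0.645).

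**Figure D1:**
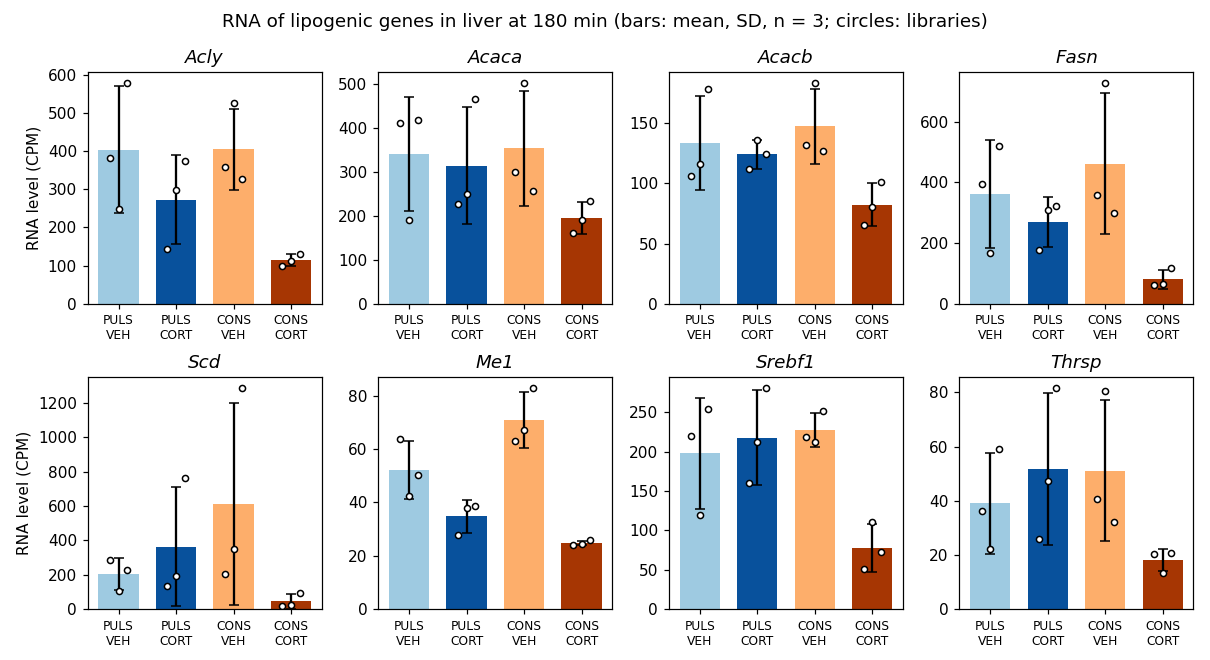
RNA level in CPM (y axis, linear from 0) of the 8 tested genes in the 4 RNA groups at 180 min (x axis); bars are means, error bars SD of 3 libraries and circles the libraries. CONS CORT is the lowest group for each gene, and single high Scd libraries stand at 1286 CPM in CONS VEH and 763 CPM in PULS CORT.

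The response to CORT was lower with the constant than with the pulsatile pattern for all 8 genes, by -0.73 for Acacb to -4.62 for Scd on the log2 scale (median -1.46, all genes 0.02). None of the 8 was called in the edgeR interaction test, in which 0.0284% of all genes were called. Of the 8, 7 had an unadjusted p below 0.05, and DESeq2 called 3 (Scd, Me1 and Srebf1). The smallest edgeR adjusted p was 0.0887, for Scd (difference -4.62 ± 1.04) and for Srebf1 (-1.68 ± 0.39). Without a filter on low counts edgeR called 5 (Fasn, Scd, Me1, Srebf1 and Thrsp). Leaving out CONS VEH replicate 1 brought Scd (0.0245) and Me1 (0.0439) past the threshold, and leaving out CONS CORT replicate 2 did so for Srebf1 (0.0411).

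**Figure D2:**
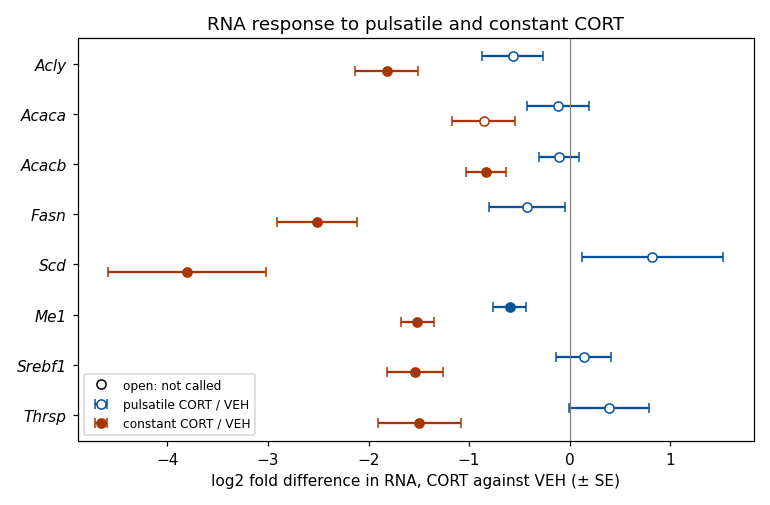
Log2 fold difference of RNA, CORT against VEH, ± SE (x axis) for each gene (y axis), with pulsatile CORT in blue and constant CORT in brown; filled points are called at an adjusted p below 0.05 and over 1.5-fold. The constant response lies below the pulsatile one for each gene, and 7 constant responses but only 1 pulsatile response are called.

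Compared directly, CONS CORT was below PULS CORT for all 8 genes, and Fasn and Srebf1 were called, against 0.270% of all genes that were lower. Fasn in CONS CORT was 0.300 times its level in PULS CORT (log2 difference -1.74 ± 0.39, adjusted p = 0.0489) and Srebf1 0.3595 times (-1.48 ± 0.28, adjusted p = 0.0202). The Fasn call was lost without any 1 of CONS CORT 1 or 2, PULS CORT 2 or 3, CONS VEH 3 or PULS VEH 1 (adjusted p 0.0511 to 0.239), and the Srebf1 call without CONS CORT 1 or 3 or PULS CORT 2 or 3 (0.0748 to 0.112). Without PULS CORT replicate 1, the count rose to 5 as Acly, Scd and Thrsp were added. Acly was also called without PULS VEH replicate 2 and Scd without CONS CORT replicate 3 (lowest adjusted p 0.0132 and 0.0457). The median log2 difference was -1.36, and that of all genes 0.00.

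The vehicle groups were also set against each other, since each pattern has its own. CONS VEH was above PULS VEH for all 8 genes, with a median log2 difference of 0.28 (all genes -0.01). None of the genes was called by edgeR or DESeq2, as for 0% of all genes, and Scd (log2 difference 1.58 ± 0.71) and Me1 (0.44 ± 0.16) had an unadjusted p below 0.05 (0.0411 and 0.0124). The falls with constant CORT are thus given also against PULS VEH, an alternative added after the data were seen: 5 genes (Acly, Acacb, Fasn, Me1 and Srebf1) were called, Thrsp at a log2 difference of -1.12 and Scd were not (adjusted p = 0.109 and 0.0708), and Acaca was at -0.80 (0.124). In the same way the pulsatile response was taken against CONS VEH: Me1 differed by -1.03 (adjusted p = 0.00146) and was again the 1 gene called, Scd and Srebf1 turned to -0.76 and -0.06 (0.638 and 0.940), and Thrsp was at 0.02 (0.990).

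Around the pathway, 39 of 40 listed genes of substrate supply, SREBP processing, regulation and esterification were tested. With constant CORT 6 rose and 6 fell, against 4.45% of all genes that rose and 4.75% that fell. With pulsatile CORT 3 rose and 1 fell, against 1.79% and 2.44%. Their median log2 differences were -0.02 for both patterns, against -0.01 for all genes. The list was chosen with earlier results of these data known. The numbers called, here and for pSer2 Pol2 below, are therefore not independent of that choice.

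The 6 that fell with constant CORT were Mid1ip1, Pklr, Acss2, Gpam, Insig2 and Srebf2. Mid1ip1, a partner of Thrsp that promotes polymerisation of acetyl-CoA carboxylase, went from 8.31, 19.0 and 5.79 CPM in CONS VEH to 1.62, 3.10 and 1.79 CPM in CONS CORT (log2 difference -2.23 ± 0.47, adjusted p = 0.00463). Pklr, liver pyruvate kinase and a ChREBP target, went from 101, 103 and 148 CPM to 28.4, 36.2 and 36.9 CPM (-1.79 ± 0.27, adjusted p = 0.000332). Neither gene's groups overlapped. Gpam, which starts triglyceride synthesis, differed by -1.12 ± 0.19 (adjusted p = 0.000885) and was also lower in CONS CORT than in PULS CORT (-0.90, adjusted p = 0.0356). Acss2, which makes acetyl-CoA from acetate, differed by -1.13 ± 0.23 (adjusted p = 0.00368). Insig2 and Srebf2 differed by -1.11 and -0.59.

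The genes that rose with constant CORT were Slc13a5, Insig1, Ppargc1b, Prkaa2, Irs2 and Lpin1. Slc13a5, which takes up citrate from blood, rose with both patterns, by 1.49 ± 0.42 with PULS and 1.76 ± 0.38 with CONS on the log2 scale (adjusted p = 0.0490 and 0.00543). Ppargc1b, a coactivator of SREBP-1, rose from 48.3, 38.8 and 30.8 CPM in CONS VEH to 110, 77.4 and 90.8 CPM in CONS CORT (1.23 ± 0.19, adjusted p = 0.000477). Of the insulin receptor substrates, Irs2 rose with constant CORT (1.02 ± 0.32, adjusted p = 0.0478) and Irs1 fell with pulsatile CORT (-0.997 ± 0.23, adjusted p = 0.0195). Of the AMP-activated kinase subunits that phosphorylate acetyl-CoA carboxylase, Prkaa2 rose with constant (0.74) and Prkaa1 with pulsatile CORT (0.69). Insig1, which holds SREBP in the endoplasmic reticulum, rose with constant CORT (1.35 ± 0.42, adjusted p = 0.0456). Directly compared, Ppargc1b, Irs1, Irs2 and Lpin1 were higher and Gpam lower in CONS CORT than in PULS CORT. Lpin1, a phosphatidate phosphatase, had the largest rise of the list, 8.30-fold with PULS and 19.2-fold with CONS. No gene of the list was called in the difference between patterns by edgeR, and 13 had an unadjusted p below 0.05.

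**Figure D3:**
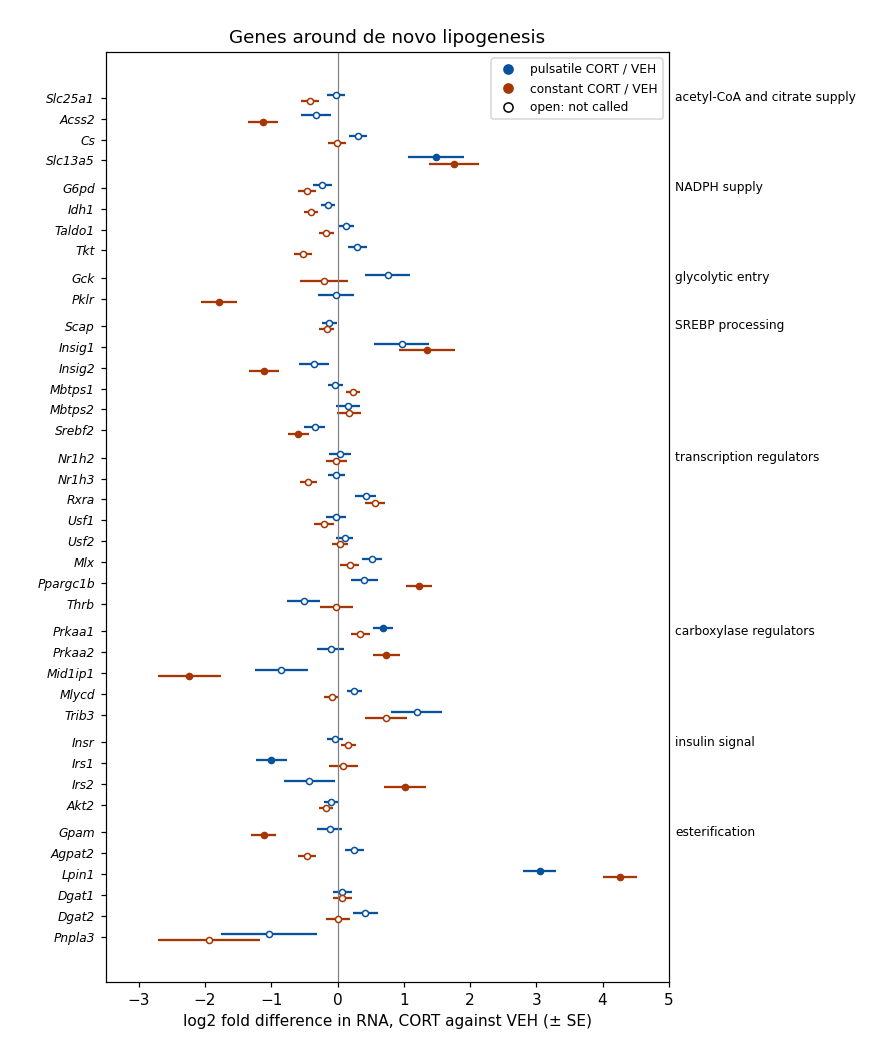
Log2 fold difference of RNA, CORT against VEH, ± SE (x axis) for the 39 tested genes around the pathway (y axis, grouped by role), pulsatile in blue and constant in brown; filled points are called. Lpin1 lies farthest right and Mid1ip1 farthest left among called genes.

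pSer2 Pol2 over up to 10 kb from a start of a gene was used to ask how elongating polymerase moved within the pulse. Values are log2 tag values per region after input subtraction, shrunk to the average of the region at low tag numbers, and each gene is described by its region with the highest mean. For Acacb, Me1 and Srebf1 this region ran from a downstream start. The upstream regions of Acacb (chr12:48228887-48238887) and Me1 (chr8:94358834-94368834) had no tags in any library. At the pulse peak pSer2 Pol2 fell over Fasn and Scd, 2 of 8 genes tested against 0.624% of all 38315 regions that were lower. Acly and Srebf1 were lower without passing the threshold, Acaca was level and Thrsp was higher without passing it. The median log2 difference of the 8 was -0.98, and that of all regions -0.05. The 8 include Acacb and Me1, whose values may lie at low tag numbers, and the median rests in part on them. Calls were made with limma at an adjusted p below 0.05 over all regions and over 1.5-fold.

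Over Fasn the log2 values were 8.01 and 7.65 in VEH and 3.25 and 4.23 in PEAK_140. They were 7.08 and 6.69 in NADIR_180, 7.37 and 5.19 in CONS_140 and 6.80 and 5.28 in CONS_180. Both PEAK_140 libraries lay below all 8 others, and all CORT libraries lay below VEH. The fall at PEAK_140 was 4.09 ± 0.67 on the log2 scale (SE; limma adjusted p = 0.0146), and PEAK_140 differed from NADIR_180 by -3.15 ± 0.67, not called (adjusted p = 0.0984) unless replicate number was fitted as a block (0.0384). The fall against VEH kept its direction without any 1 library (-3.60 to -4.58), but was past the threshold only without CONS_180 1 or 2 and missed it without any of the other 8 (adjusted p 0.0724 to 0.245).

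Over Scd the log2 values were 6.10 and 5.82 in VEH, 2.90 and 2.86 in PEAK_140, 2.88 and 2.84 in NADIR_180, 5.01 and 2.76 in CONS_140 and 6.45 and 6.30 in CONS_180. Scd was thus low at the peak and the trough of the pulse, high in VEH and CONS_180, and split between the CONS_140 libraries. The 5 low libraries lay between 2.76 and 2.90. Values this close may lie at the low tag numbers at which values are shrunk, and the tag numbers of the region were not examined. In that case neither the size of the differences below nor the likeness of peak and trough is measured. The fall at PEAK_140 was 3.08 ± 0.55 (adjusted p = 0.0230). CONS_180 was above NADIR_180 by 3.51 ± 0.55 (adjusted p = 0.0354), the 1 gene of the 8 called in that comparison, against 0.164% of regions that were higher. The same low level at NADIR_180 was not called against VEH (-3.10 ± 0.55, adjusted p = 0.412). Both Scd calls were lost without any 1 of 8 of the 10 libraries, the peak call without NADIR_180, PEAK_140, VEH or CONS_180 1 or 2 (adjusted p 0.0992 to 0.318) and the CONS_180 call without the same libraries (0.104 to 0.593). At 180 min Scd RNA was at 19.5 to 91.3 CPM in CONS CORT, while pSer2 Pol2 over Scd in CONS_180 was at or above its level in VEH. The references are unlike, since the ChIP VEH was pulsatile. Against PULS VEH the fall in Scd RNA was not called (log2 difference -2.23, edgeR adjusted p = 0.0708).

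Over Acly the log2 values were 8.10 and 7.81 in VEH, 6.04 and 3.04 in PEAK_140, 6.96 and 6.79 in NADIR_180, 7.18 and 6.38 in CONS_140 and 6.66 and 5.51 in CONS_180. All CORT libraries were below VEH, but the PEAK_140 libraries stood far apart. The difference at PEAK_140 was -3.42 ± 0.76 (adjusted p = 0.0775). It was called with a replicate block, in which the VEH libraries carry no number and took a neutral code (adjusted p = 0.00907), and without PEAK_140 replicate 1 (0.0178).

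Over the downstream start of Srebf1 the log2 values were 9.32 and 8.81 in VEH, 7.44 and 7.33 in PEAK_140, 8.50 and 8.44 in NADIR_180, 8.77 and 7.20 in CONS_140 and 8.40 and 8.03 in CONS_180. Every CORT library was below both VEH libraries, and PEAK_140 differed from VEH by -1.68 ± 0.46 (adjusted p = 0.186). Over the upstream start (chr10:46583009-46593009) the values were lower, between 3.66 and 6.29, and no comparison was called.

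Thrsp pSer2 Pol2 stood on the other side of vehicle. The log2 values were 9.31 and 8.96 in VEH, 9.65 and 10.16 in PEAK_140, 9.53 and 9.34 in NADIR_180, 10.28 and 9.71 in CONS_140 and 9.60 and 9.54 in CONS_180. All 8 CORT libraries were above both VEH libraries, the differences of 0.29 to 0.86 were not called against VEH (adjusted p 0.536 to 1.00), and without CONS_140 replicate 2 CONS_140 was called (1.14, adjusted p = 0.0201). Acaca lay between 3.97 and 4.43 in all libraries and Acacb between 3.01 and 3.78, with 7 Acacb libraries at 3.01. Me1 lay between -1.09 and -1.06 in 9 libraries and at -0.45 in CONS_140 replicate 1. As for Scd, values this close may lie at low tag numbers, which were not examined. In that case a lack of difference over Acacb or Me1 is not a measured equality, though both count among the 8 genes tested.

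**Figure D4:**
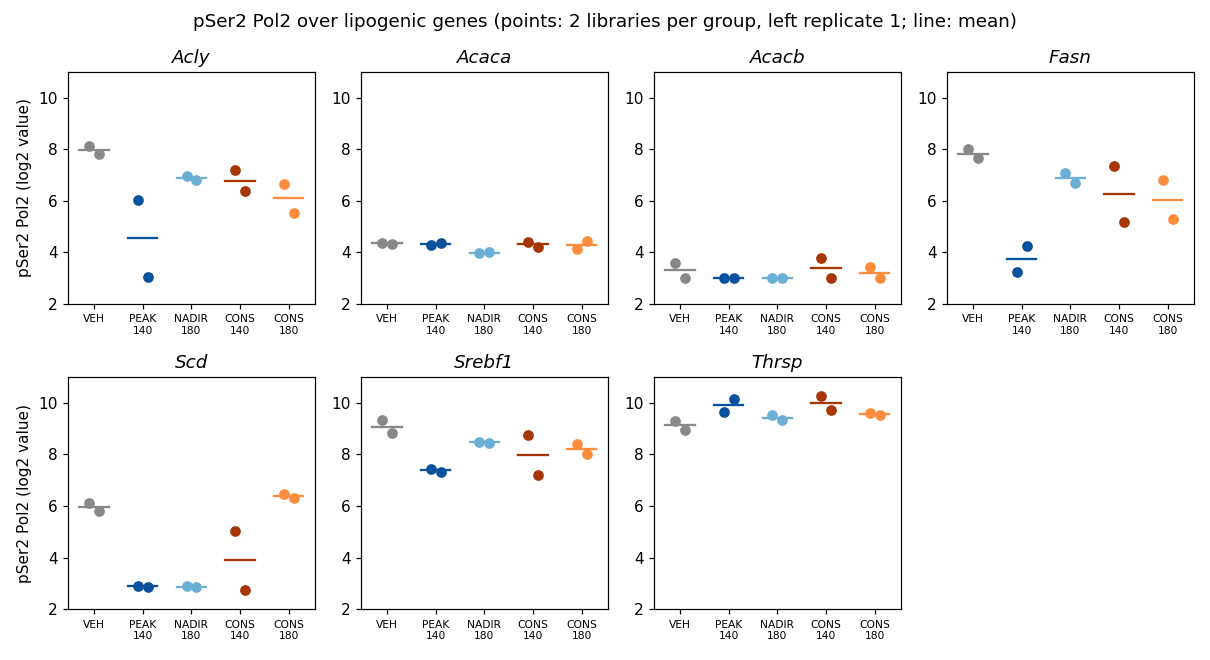
pSer2 Pol2 log2 value (y axis) of 7 genes in the 5 ChIP groups (x axis); points are the 2 libraries of a group, replicate 1 on the left, and lines their means. Fasn is lowest at PEAK_140, Scd is low at PEAK_140 and NADIR_180 and back at 6.30 to 6.45 in CONS_180, and Thrsp lies above VEH in every CORT group.

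No gene was called by limma in the other pSer2 Pol2 comparisons. At NADIR_180 against VEH 1 of the 8 had an unadjusted p below 0.05 (0.00522% of regions called), at CONS_140 against VEH 4 (0.788%) and at CONS_180 against VEH 2 (0.214%). Between groups given CORT, the number with an unadjusted p below 0.05 was 3 for PEAK_140 against NADIR_180 (0.480% of regions called), 1 for CONS_140 against CONS_180 (0%), 2 for PEAK_140 against CONS_140 (0.0261%) and 3 for the difference of the time effects between patterns (0.0574%). The median log2 differences of the 8 against VEH, Acacb and Me1 included, were -0.48 at NADIR_180, -0.57 at CONS_140 and -0.08 at CONS_180. Those of all regions were 0.01, 0.15 and 0.01. CONS_140 replicate 2 was the lower library of its group for all 8 genes. Replicate 1 was the library that stood apart over all regions, with a median log2 value of 2.84 against 2.36 to 2.56 in the other 9, replicate 2 included. Without replicate 2, where CONS_140 is represented by that higher library alone, Fasn, Scd, Me1 and Srebf1 were called in PEAK_140 against CONS_140 (4 of 8) and in the difference of the time effects (4), Scd, Me1 and Thrsp in CONS_140 against VEH (3) and Scd and Me1 in CONS_140 against CONS_180 (2). The Me1 calls set the single value of -0.45 against values that lie between -1.09 and -1.06, and are not read as a change. Without CONS_140 replicate 1, Scd was called in CONS_140 against VEH and against CONS_180. Without either CONS_140 library, Scd was called at NADIR_180 against VEH (adjusted p = 0.0205 or 0.0206).

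Of the genes around the pathway, 38 were tested for pSer2 Pol2. At PEAK_140 against VEH 2 rose (Slc13a5 and Lpin1) and 3 fell (Idh1, Insig2 and Mid1ip1), against 0.365% of all regions that rose and 0.624% that fell, with a median log2 difference of -0.25 against -0.05 for all regions. Over Mid1ip1 the log2 values were 8.20 and 7.93 in VEH, 6.01 and 5.78 in PEAK_140, 7.99 and 7.77 in NADIR_180, 7.78 and 7.39 in CONS_140 and 7.08 and 6.73 in CONS_180. The peak libraries lay below all others, as for Fasn, with a log2 difference of -2.16 ± 0.33 (adjusted p = 0.00963). Over Slc13a5 they were 3.18 and 3.30 in VEH and 6.37 and 6.61 in PEAK_140, a rise of 3.25 ± 0.67 (adjusted p = 0.0487), and between 4.35 and 7.02 in the other CORT libraries. Idh1, a source of NADPH, differed by -2.47 ± 0.38 (adjusted p = 0.0104). Insig1 was called in 4 comparisons, among them -2.57 at NADIR_180 against VEH (adjusted p = 0.0221).

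GR ChIP was used to ask where the receptor bound near these genes and how binding followed the hormone. Of the 8 regions within 50 kb, 4 lay upstream of Thrsp, 2 at Scd, 1 at Acacb and 1 at Srebf1, and none at Acly, Acaca, Fasn or Me1. The GR regions were defined by the authors as enriched over input in these same libraries, and merged over the groups. None of the sites below was selected through VEH or NADIR_180. Thrsp at -4555 and -220 b entered through PEAK_140 alone, and Srebf1 and Scd at -7130 b through CONS_180 alone. Higher values in a selecting group than in VEH or NADIR_180 are therefore favoured by the selection, here and over all regions. At the pulse peak 6 of the 8 were higher than VEH, against 78.6% of all 3981 GR regions. The numbers were 6 in CONS_140 (64.7%) and 7 in CONS_180 (67.9%). At NADIR_180 none was higher by limma (7.44% of all regions), with 1 at an unadjusted p below 0.05. The NADIR_180 libraries were unlike each other over all regions, with a median log2 value of 1.33 in replicate 1 and -0.48 in replicate 2. The lack of calls at NADIR_180 therefore does not show that binding was absent at the trough. The median log2 differences from VEH were 3.45, 3.34, 3.79 and 1.81 in PEAK_140, CONS_140, CONS_180 and NADIR_180, beside 4.17, 3.38, 3.46 and 0.84 for all regions. At most of these sites the VEH values lay near the medians of the VEH libraries over all regions, -0.65 and -0.86. At such low levels the values are shrunk, so the size of a rise from VEH is not a measured fold. Likeness to VEH at that level is not a measured equality either. Without VEH replicate 2 the count at PEAK_140 was 3, and without VEH 1 or 2 or CONS_180 1 or 2 the count in CONS_180 was 4. Without NADIR_180 replicate 2 the count at NADIR_180 was 2.

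The strongest site was 13286 b downstream of the Scd start, at the end of the gene (chr1:264159130-264159755). Its GR log2 values were -0.57 and -0.77 in VEH, 6.01 and 5.87 in PEAK_140, 2.90 and -0.33 in NADIR_180, 4.72 and 5.05 in CONS_140 and 5.08 and 4.96 in CONS_180. PEAK_140 lay above all other libraries and both constant groups above NADIR_180 and VEH. The rise at PEAK_140 was 6.61 ± 0.91 on the log2 scale (adjusted p = 0.000280), and PEAK_140 was 4.65 ± 0.91 above NADIR_180 (adjusted p = 0.00275). A second Scd site 7130 b upstream (chr1:264179547-264180172) had -0.72 and 0.45 in VEH, 2.04 and 1.83 in PEAK_140, 2.67 and -0.53 in NADIR_180, 3.82 and 2.23 in CONS_140 and 3.65 and 1.99 in CONS_180. It was called in CONS_140 (3.16 ± 1.14, adjusted p = 0.0359) and CONS_180 (2.95 ± 1.14, adjusted p = 0.0444) and not at PEAK_140 (2.07 ± 1.14, adjusted p = 0.120). This second site was selected in CONS_180 alone, so its call there and not at PEAK_140 is not independent of the selection. The CONS_140 call was lost without CONS_140 1, PEAK_140 1 or 2 or VEH 1 or 2 (adjusted p 0.0558 to 0.186), and the CONS_180 call without CONS_180 1 or 2, PEAK_140 1 or 2 or VEH 1 or 2 (0.0554 to 0.229).

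The 4 Thrsp sites lay upstream of the gene, at 220, 1455, 3115 and 4555 b from the start. The site at 220 b (chr1:162385598-162385993) overlies the promoter in rn6, and had -0.72 and -0.86 in VEH, 3.57 and 2.60 in PEAK_140, 0.70 and 2.01 in NADIR_180, 3.46 and 1.17 in CONS_140 and 1.61 and 2.65 in CONS_180. All CORT libraries lay above VEH, and the rises of 3.88, 3.11 and 2.92 in PEAK_140, CONS_140 and CONS_180 were called (adjusted p = 0.00454, 0.0158 and 0.0208). This site was selected in PEAK_140 alone, so its call in that group is not independent of the selection. The CONS_140 call was lost without CONS_140 1 or VEH 1 or 2 (adjusted p 0.0569 to 0.0956) and the CONS_180 call without CONS_180 2 or VEH 1 or 2 (0.0681 to 0.109). The site at 1455 b (chr1:162386693-162387368) had -0.71 and -0.89 in VEH, 4.48 and 2.82 in PEAK_140, 2.85 and -0.48 in NADIR_180, 5.04 and 3.92 in CONS_140 and 3.97 and 4.36 in CONS_180. It rose by 4.45, 5.27 and 4.96 in PEAK_140, CONS_140 and CONS_180 (adjusted p = 0.00483, 0.00257 and 0.00364). The site at 3115 b (chr1:162388378-162389003) had 1.35 and -0.93 in VEH, 3.92 and 3.05 in PEAK_140, -0.70 and -0.54 in NADIR_180, 3.92 and 3.56 in CONS_140 and 3.46 and 4.21 in CONS_180. Its NADIR_180 libraries were at the level of VEH, and PEAK_140 was 4.11 ± 0.83 above them (adjusted p = 0.00314). The site at 4555 b (chr1:162389933-162390328), with -1.03 and -1.15 in VEH, 3.42 and 1.09 in PEAK_140 and -0.98 and -0.88 in NADIR_180, was called at PEAK_140 alone against VEH (3.34 ± 1.12, adjusted p = 0.0217), with 0.40 and -1.11 in CONS_140 and 1.18 and -1.24 in CONS_180, and that call was lost without PEAK_140 1 or VEH 1 or 2 (0.0745 to 0.159). The site at 4555 b was selected in PEAK_140 alone, so its call in that group alone is not independent of the selection. Without VEH replicate 2 the rise at 3115 b at PEAK_140 was not called (adjusted p = 0.0522).

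The Acacb site (chr12:48238774-48239399) was centred 199 b before an upstream start of the gene in rn6. Its log2 values were -0.83 and -0.99 in VEH, 4.22 and 1.09 in PEAK_140, 0.66 and 0.85 in NADIR_180, 4.31 and 2.69 in CONS_140 and 3.48 and 2.61 in CONS_180. All CORT libraries lay above VEH, with rises of 3.57, 4.41 and 3.95 in PEAK_140, CONS_140 and CONS_180 (adjusted p = 0.0118, 0.00532 and 0.00931). The PEAK_140 call was lost without PEAK_140 1 or VEH 2 (0.0532 to 0.0866) and the CONS_180 call without CONS_180 1 (0.0629). The pSer2 Pol2 region of that start had no tags in any library. The Srebf1 site (chr10:46585890-46586515) lay 3348 b upstream of the downstream start and within the first intron from the upstream start. It had -0.85 and -0.997 in VEH, 0.75 and 3.17 in PEAK_140, 0.59 and 1.45 in NADIR_180, 3.04 and -0.95 in CONS_140 and 3.36 and 2.68 in CONS_180. It was called in CONS_180 (3.95 ± 1.296, adjusted p = 0.0242), while at PEAK_140 the difference of 2.89 ± 1.296 was not (adjusted p = 0.0654). The Srebf1 site was selected in CONS_180 alone, so its call in that group is not independent of the selection. The CONS_180 call was lost without CONS_180 1 or 2 or VEH 1 or 2 (0.0675 to 0.113). PEAK_140 was called without CONS_140 1 or 2 or PEAK_140 1 (lowest adjusted p 0.0151) and CONS_140 without CONS_140 2 (0.0125).

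**Figure D5:**
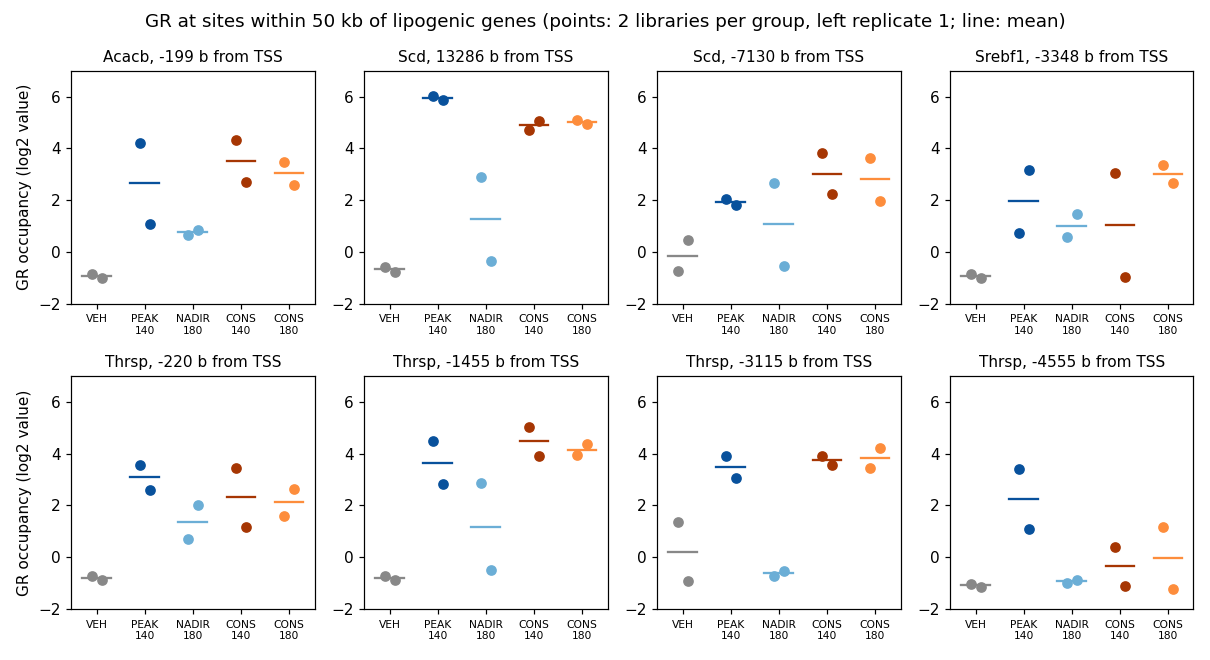
GR log2 value (y axis) at the 8 sites within 50 kb of a start site (panel titles give the distance in b, negative for upstream) in the 5 ChIP groups (x axis); points are the 2 libraries of a group, replicate 1 on the left, and lines their means. The Scd site at 13286 b reaches 6.01 at PEAK_140, and the Thrsp site at -3115 b is at VEH level in both NADIR_180 libraries.

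Between groups given CORT, 3 of the 8 sites were higher at PEAK_140 than at NADIR_180 (Scd at 13286 b, Thrsp at -3115 and -4555 b), against 68.8% of all regions. In CONS_180 against NADIR_180, 3 were higher (Scd at 13286 b, Thrsp at -3115 and -1455 b), against 49.6%, and 1 without CONS_180 1 or 2. The call at -1455 b was held only without NADIR_180 1 and was lost without any other library (adjusted p 0.0564 to 0.250), and the peak call at -4555 b was lost without NADIR_180 1 or 2, PEAK_140 1 or VEH 1 (0.0514 to 0.208). The difference of the time effects was called for 2 (Scd at 13286 b and Thrsp at -3115 b), against 43.6%. It was called for 0 without CONS_140 2, CONS_180 1, CONS_180 2 or PEAK_140 1 and for 1 without PEAK_140 2. The median log2 differences were 2.18, 2.14 and 2.53, beside 3.20, 2.49 and 3.11 for all regions. No site was called by limma in CONS_140 against CONS_180 (0% of regions called, 0 of 8 sites at an unadjusted p below 0.05) or in PEAK_140 against CONS_140 (0.0502%, 1 of 8 sites). Within 100 kb, 3 more regions were found, 2 upstream of Acaca at 72774 and 74037 b and 1 upstream of Fasn at 78670 b.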

How the data were processed

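Liver libraries were 12 for RNA, 10 each for GR, pSer2 Pol2 and input. The authors deposited raw RNA read counts per gene, made with STAR and featureCounts 1.6.2 on rn6; the counting strand setting was not stated, so reads of overlapping antisense genes could not be told apart. The authors' ChIP values were deposited as log2 tags per region after trimming (Trimmomatic 0.36), bowtie2 alignment to rn6, removal of duplicates, and HOMER 4.9.1 quantification with input subtracted; these values are shrunk to the average of the region at low tag numbers. The GR scaling is described in 2 ways, to tags in regions in the methods and to total tags in the header. The authors' fold change and p columns were not used, and no column of another sample was left unmatched.

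Counts were tested with edgeR 4.0.16 quasi-likelihood (TMM, after dropping genes whose 12 libraries summed to 10 reads or fewer, all 4 groups in 1 fit). ChIP values were tested with limma 3.58.1 (all 5 groups, moderated with a trend), in regions with tags. All p-values were Benjamini-Hochberg adjusted over every feature tested, and a call needed an adjusted p below 0.05 and a change over 1.5-fold. DESeq2 1.42.0, other filters, scalings, fits of the compared groups alone, a replicate block and leaving out each library were alternatives. R 4.3.3 and Python 3.11.15 were used, and the tests were tested on simulated data. Every member was named, and a pathway gene where it was called in any RNA or pSer2 Pol2 comparison. Members and lists were chosen with earlier results of these data known. Same-numbered pSer2 Pol2 libraries deviated together (correlations 0.155 to 0.553 in the 6 pairs of CORT groups), and those of GR and RNA did not. The main calls of all 3 assays were nevertheless made without pairing by number. The replicate block was fitted only as an alternative. The VEH ChIP libraries carry no replicate number and took a neutral code in the block.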

Additional observations from a re-analysis of the deposited data

Results flagged for a closer look

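At 2 GR sites the change between 140 and 180 min differed between the patterns by the interaction test in limma. At the Scd site 13286 b downstream of the start, the difference between PEAK_140 and NADIR_180 exceeded that between CONS_140 and CONS_180 by 4.79 ± 1.29 on the log2 scale (adjusted p = 0.0207). At the Thrsp site 3115 b upstream it exceeded it by 4.21 ± 1.17 (adjusted p = 0.0233). Of all GR regions, 43.6% were called in this test, so a call in 2 of the 8 sites does not set them apart. The median log2 difference was 2.53 for the 8 sites and 3.11 for all regions. Neither site was called with centred libraries or with quantile normalization.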

How the results depend on the processing

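Of the values of single genes and sites under the alternatives, 2936 stayed on their side of the threshold, among them 151 that were not called and turned sign, 144 lost and 76 gained a call, and 22 called values reversed. The fall with constant CORT was called for Acly, Fasn, Me1 and Srebf1 under all 21 alternatives, for Scd under 20, Acacb under 19 and Thrsp under 16.

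In RNA the number of the 8 genes called in the difference between CORT responses was 3 with DESeq2, 5 without a count filter and 1 with a replicate block. For CONS CORT against PULS CORT it was 4 with DESeq2, 5 without a filter, 1 with a filter of 10 reads in 3 libraries and 5 with these groups alone, where PULS CORT against VEH gave 0. In pSer2 Pol2, centred libraries gave 4 at PEAK_140, 1 at NADIR_180 and 1 at CONS_140 against VEH, and 1 for PEAK_140 against NADIR_180. Quantile normalization gave 1 at CONS_140. Without a variance trend, or with the compared groups alone, PEAK_140 against VEH gave 0 and CONS_180 against NADIR_180 gave 0. Testing only regions above the median level gave 1 for PEAK_140 against NADIR_180, as did the replicate block, which also brought Acly at PEAK_140 past the threshold (adjusted p = 0.00907). The RNA and GR numbers share only a number. The cause of these changes was not tested.

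Most GR regions rose together. Both scalings remove this common shift, so a call under them asks whether a site rose more than most regions, and most calls were lost. With centred libraries 0 sites were called in PEAK_140, CONS_140 and CONS_180 against VEH, PEAK_140 against NADIR_180, CONS_180 against NADIR_180 and the time effect. With quantile normalization the counts were 1, 0, 1, 0, 0 and 0. Compared groups alone gave 1 for CONS_180 against NADIR_180, and the 100 kb window 6 for PEAK_140 and 5 for CONS_180 against NADIR_180. With centred libraries the reversed log2 differences from VEH were, at PEAK_140, -1.34 (Thrsp at -3115 b), -0.17 (-1455 b), -1.28 (-4555 b), -0.74 (-220 b) and -1.05 (Acacb). At CONS_140 they were -0.58 (Thrsp at -3115 b), -1.002 (-220 b) and -0.95 (Scd at -7130 b). At CONS_180 they were -0.12 (Srebf1), -0.43 (Thrsp at -3115 b), -1.14 (-220 b), -1.11 (Scd at -7130 b) and -0.11 (Acacb), and PEAK_140 against NADIR_180 was -0.26 (Thrsp at -4555 b). With quantile normalization they were -0.88, -0.011 and -0.56 at PEAK_140 (Thrsp at -3115, -1455 and -220 b), -0.26, -0.75 and -0.45 at CONS_140 (Thrsp at -3115 b, Scd at -7130 b, Thrsp at -220 b), and -0.99 and -0.88 at CONS_180 (Scd at -7130 b, Thrsp at -220 b).

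Leaving out 1 library, the lone library left in a ChIP group being assumed to vary like the other groups, gave these ranges of calls. In RNA they were 0 to 1 with PULS, 5 to 8 with CONS, 0 to 2 for their difference, 0 to 5 for CONS CORT against PULS CORT and 0 to 0 for the vehicles. In pSer2 Pol2 they were 0 to 1 at PEAK_140, 0 to 1 at NADIR_180, 0 to 3 at CONS_140, 0 to 0 at CONS_180, 0 to 0 for PEAK_140 against NADIR_180, 0 to 2 for CONS_140 against CONS_180, 0 to 4 for PEAK_140 against CONS_140, 0 to 1 for CONS_180 against NADIR_180 and 0 to 4 for the time effect. For GR they were 3 to 7, 0 to 2, 4 to 7 and 4 to 7 at PEAK_140, NADIR_180, CONS_140 and CONS_180, 2 to 4 for PEAK_140 against NADIR_180, 0 to 0 for both comparisons of CONS_140, 1 to 4 for CONS_180 against NADIR_180 and 0 to 3 for the time effect. Each ChIP group had 2 libraries of 6 pooled rats, which limits the calls.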
